A study of Arabidopsis thaliana with 4 samples.

Results

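Cytosolic ribosomal protein genes were followed across leaf mRNA libraries of *Arabidopsis thaliana*. The 53 genes were chosen by gene ID, with no threshold on their values, as 20 genes of large subunit proteins, 4 of the P stalk, 28 of small subunit proteins and 1 for *RACK1A*. All 53 were found among the 27655 genes of the deposited table, and all 53 were among the 16374 genes that reached 1 FPKM (fragments per kilobase of exon after scaling by library size) in at least 1 library.

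By the paper's account, the 4 libraries were made from leaves of 3-week-old, soil-grown plants of the Columbia ecotype, 1 library per condition. The labels call the material seedlings and name no tissue. They were OX5-4 after 6 h of 20% polyethylene glycol (PEG), *atbbd1* after 6 h of PEG, wild type (WT) after 6 h of PEG, and WT at 0 h, taken before PEG. PEG is an osmoticum that makes water harder for roots to take up. OX5-4 is a single transgenic line made to overexpress *AtBBD1*, with a promoter that the labels give as p35S and the paper as one of cassava vein mosaic virus, and *atbbd1* carries a T-DNA insertion in that gene. The paper describes RNA pooled from leaves of several plants per genotype, so each library averages over plants and no spread between plants can be read from it. With no replicates, no p-value is given. Each ratio carries an exact 95% interval on estimated reads, which covers counting error only and not the variation between plants. Without a PEG-free library at 6 h, PEG and the time of day cannot be told apart in the comparison of WT after PEG with WT at 0 h.

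A cytosolic ribosome is built from ribosomal RNA and many proteins, and most of these proteins are encoded by several similar genes (paralogs) in *Arabidopsis*. The large subunit forms peptide bonds, the small subunit reads the mRNA, and the P stalk, with P0 at its base, recruits the GTPase factors of elongation. Ribosomal protein mRNAs are abundant in growing tissue and are known to be controlled together by growth, light and sugar, in part through the kinase TOR. Short promoter elements named the telo-box and site II are found often in this gene class in plants.

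Both elements were looked for in the 250 bases before and the 50 bases from the annotated start of each gene (TAIR10.1 assembly and RefSeq annotation). The telo-box was searched as AAACCCTAA and site II as TGGGCC or TGGGCT, on both strands, with overlapping matches of 1 motif counted as 1 place. A telo-box was found at 17 of the 53 genes (32.1%), against 3.60% of the windows of 27443 protein-coding nuclear genes. Site II was found at 37 of 53 (69.8%), against 21.7% of all windows, and at 2 or more places at 30 of 53 (56.6%), against 13.4%. Both motifs were found at 13 genes (24.5%, against 1.29%) and neither at 12 (22.6%, against 76.0%). Read only as the gene is transcribed, the telo-box was found at 5 genes (9.43%, against 2.14% of all windows) and site II at 30 (56.6%, against 14.3%). The same windows of 166 other cytosolic ribosomal protein genes held a telo-box in 25.3% (17.5% as transcribed) and site II in 78.9%, and those of 31 plastid ribosomal protein genes in 3.23% and 48.4%.

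The bases before the start are shown for 6 genes whose mRNA levels are described further on, with matches to either motif in capitals. AT5G20290 had the highest mean level of the 53, *RPS5A* (AT3G11940) and *RPS5B* (AT2G37270) are paralogs with unlike ratios, AT1G33120 and AT4G10450 are the paralogs farthest apart, and *RPS18C* (AT4G09800) was the gene least lower after PEG.
AT5G20290 (chr5:6853107-6853356, minus strand): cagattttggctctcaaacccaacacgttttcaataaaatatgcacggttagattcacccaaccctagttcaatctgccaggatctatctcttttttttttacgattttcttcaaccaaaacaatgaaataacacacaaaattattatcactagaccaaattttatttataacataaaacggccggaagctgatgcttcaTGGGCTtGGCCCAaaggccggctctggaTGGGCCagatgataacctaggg
RPS5A (chr3:3779546-3779795, minus strand): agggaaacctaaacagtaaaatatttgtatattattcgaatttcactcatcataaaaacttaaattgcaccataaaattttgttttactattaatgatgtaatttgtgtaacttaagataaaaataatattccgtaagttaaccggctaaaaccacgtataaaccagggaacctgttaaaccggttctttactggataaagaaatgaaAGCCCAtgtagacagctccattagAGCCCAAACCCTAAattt
RPS5B (chr2:15649472-15649721, minus strand): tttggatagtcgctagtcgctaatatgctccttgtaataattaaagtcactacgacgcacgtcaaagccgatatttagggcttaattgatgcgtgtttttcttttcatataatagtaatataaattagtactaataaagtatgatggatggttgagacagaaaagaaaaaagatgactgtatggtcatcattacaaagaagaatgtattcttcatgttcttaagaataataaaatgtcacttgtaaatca
AT1G33120 (chr1:12010629-12010878, plus strand): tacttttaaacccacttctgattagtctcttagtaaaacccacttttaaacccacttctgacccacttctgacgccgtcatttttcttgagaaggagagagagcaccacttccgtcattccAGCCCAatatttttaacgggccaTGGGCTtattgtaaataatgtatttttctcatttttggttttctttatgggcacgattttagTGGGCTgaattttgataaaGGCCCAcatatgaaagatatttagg
AT4G10450 (chr4:6464559-6464808, minus strand): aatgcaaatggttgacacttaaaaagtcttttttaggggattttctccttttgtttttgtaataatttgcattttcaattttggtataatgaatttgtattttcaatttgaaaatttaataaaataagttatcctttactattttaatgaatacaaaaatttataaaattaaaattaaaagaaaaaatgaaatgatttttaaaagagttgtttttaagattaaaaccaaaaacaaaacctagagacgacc
RPS18C (chr4:6173462-6173711, plus strand): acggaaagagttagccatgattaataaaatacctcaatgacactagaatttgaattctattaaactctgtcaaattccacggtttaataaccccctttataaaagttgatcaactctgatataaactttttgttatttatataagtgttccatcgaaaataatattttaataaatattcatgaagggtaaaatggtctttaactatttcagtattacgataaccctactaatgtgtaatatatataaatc

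AT5G20290 held 3 places of site II within its last 50 bases before the start. *RPS5A* held 2 places of site II, the nearer of which overlaps a telo-box by 1 base, and a further telo-box lies past its start. *RPS5B* and *RPS18C* held neither motif. AT1G33120 held 4 places of site II and a telo-box that crosses its start, and AT4G10450 only a telo-box past its start. These are matches of letters, and binding was not measured.

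**Figure D1:**
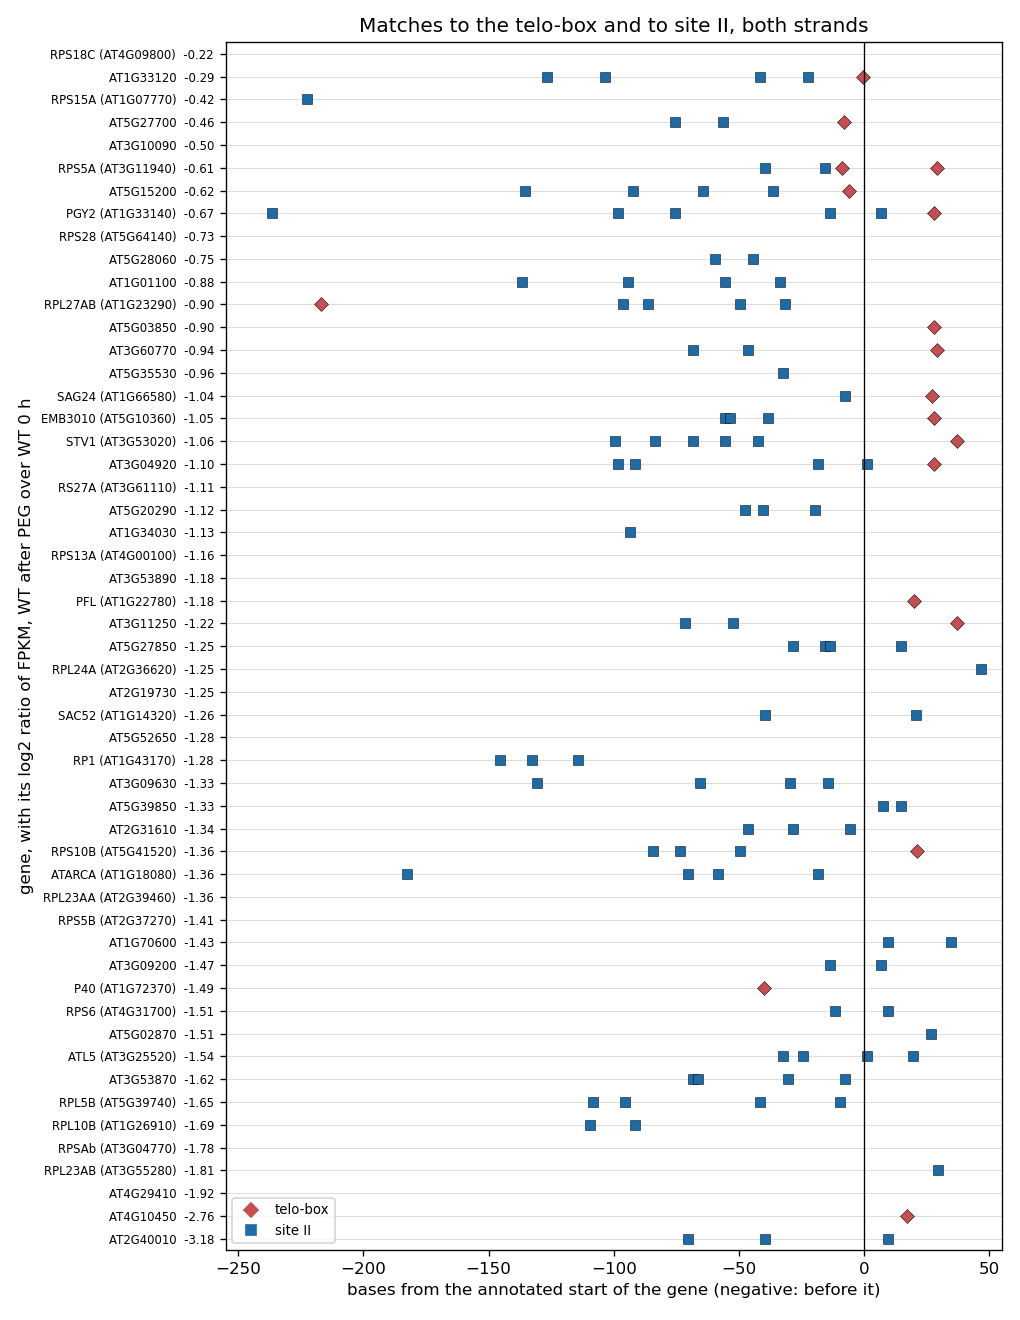
Positions of telo-box (diamonds) and site II (squares) matches in the 250 bases before and 50 bases from the start of each of the 53 genes, in bases from the start, with overlapping matches drawn separately. Genes run down the page by their log2 ratio of FPKM between WT after PEG and WT at 0 h, printed beside the name, and genes with and without matches occur along the whole order.

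*AtBBD1* was measured first as a check of the labels. It was at 631 FPKM in OX5-4, 36.6 FPKM in *atbbd1* and 541 FPKM in WT after PEG, and at 95.5 FPKM in WT at 0 h. The *atbbd1* library was 14.8-fold lower than WT, whereas OX5-4 exceeded WT only 1.17-fold, and its paralog *AtBBD2* by 1.15-fold. The *AtBBD1* level thus fits the label of *atbbd1* but does not set OX5-4 apart from WT after PEG. The paper reports a several-fold higher *AtBBD1* level in this line than in WT, in a supplementary figure that it cites for qRT-PCR. It names no PEG treatment for that value, so method and condition may both differ from those of the libraries after PEG. Estimated depth was 15329000 to 17684000 mapped fragments per library, and 15047 to 15426 genes reached 1 FPKM. The 5 leaf mesophyll markers summed to 24137 to 31097 FPKM, and the 3 root markers to at most 0.05 FPKM.

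The ribosomal protein genes were lower in WT after PEG than in WT at 0 h without exception. Their median was 62.9 FPKM in WT after PEG, against 142 FPKM in WT at 0 h, and their summed FPKM was 3470 in WT after PEG, against 7420 in WT at 0 h, 2.14-fold lower. The median log2 ratio was −1.25 (quartiles −1.43 to −0.94), against 0.04 over all genes kept. Of the 53 genes, 53 were below WT at 0 h, where 47.7% of all genes kept were, and all 53 counting intervals lay below a ratio of 1. Over the 16282 genes kept that have an exon length, 35.4% of intervals lay below 1 and 38.4% above it. At 20 FPKM or more in at least 1 library, 46.0% of 5235 genes had an interval below 1, as had all 48 ribosomal protein genes at that level. At least 2-fold lower were 38 (71.7%), against 15.9% of all genes kept, and at least 1.5-fold lower were 48, against 25.4%. None was higher at any size, against 52.1% of all genes kept, of which 16.1% were at least 2-fold and 27.4% at least 1.5-fold higher.

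The genes also lay close together. The span between the quartiles was 0.49 on the log2 scale, against 1.26 over all genes kept, and 12.0% of all genes lay at or below the median of the ribosomal protein genes. WT at 0 h was the highest of the 4 libraries for all 53 genes, so that each of the 3 libraries after PEG lay below it. The share of all genes kept that were highest in WT at 0 h was not counted. Against WT at 0 h, the median log2 ratio was −1.45 in OX5-4, −1.22 in *atbbd1* and −1.25 in WT after PEG. These ratios share the library of WT at 0 h. Rescaling to the median of ratios, to a common FPKM sum or to the sum of genes that are no cytosolic ribosomal protein gene left all 53 below WT at 0 h, with medians of −1.30, −1.30 and −1.34.

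**Figure D2:**
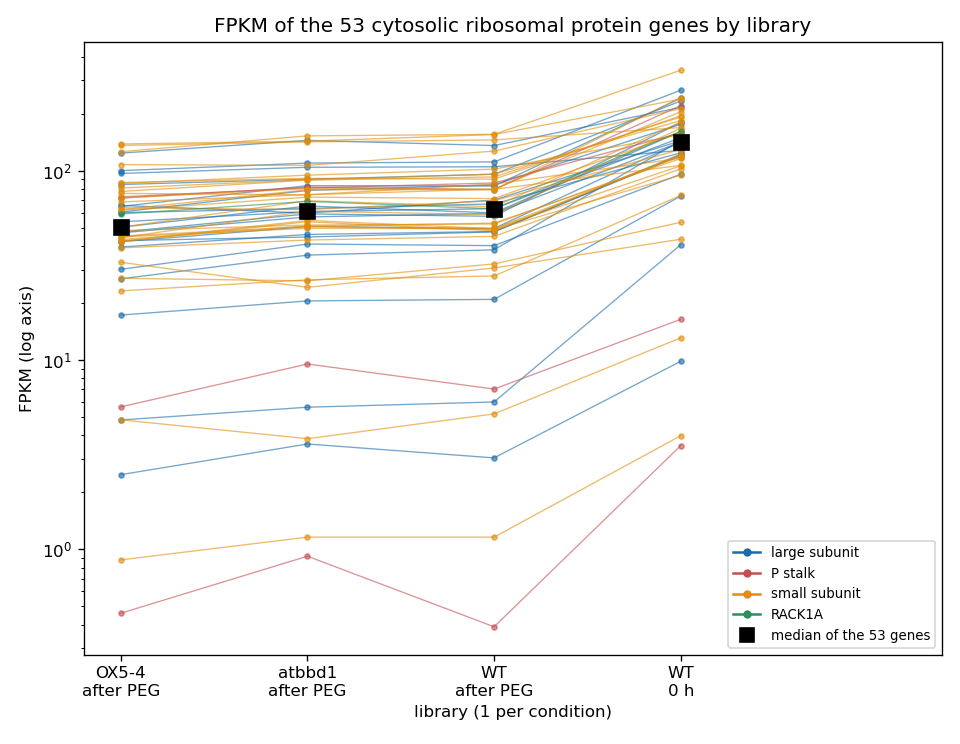
FPKM of the 53 genes in each of the 4 libraries, on a log axis, with 1 line per gene and black squares at the median of the 53 genes. The medians are 50.2 FPKM in OX5-4, 61.0 FPKM in atbbd1 and 62.9 FPKM in WT after PEG, against 142 FPKM in WT at 0 h, and every line is highest at WT at 0 h.

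Among the 20 large subunit genes the median log2 ratio between WT after PEG and WT at 0 h was −1.31. Of these 20, 17 (85.0%) were at least 2-fold lower, where 15.9% of all genes kept were. The 28 small subunit genes had a median of −1.12, and 17 (60.7%) were at least 2-fold lower. The 4 P stalk genes had a median of −1.35, and 3 were at least 2-fold lower. The summed FPKM of the large subunit genes was 1243 in WT after PEG, against 2905 in WT at 0 h, and that of the small subunit genes was 1992 in WT after PEG, against 3956 in WT at 0 h. *RACK1A* (AT1G18080), a WD40-repeat scaffold protein bound to the small subunit, was at 62.9 FPKM in WT after PEG, against 161 FPKM in WT at 0 h, a log2 ratio of −1.36.

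Of the 5 genes with the highest mean FPKM, AT5G20290 and *SAC52* (AT1G14320) lay close to the median, and AT5G15200, *PGY2* and *RPS18C* above it. AT5G20290, which encodes protein S8 of the small subunit, was at 126 FPKM in OX5-4, 152 FPKM in *atbbd1* and 155 FPKM in WT after PEG, against 339 FPKM in WT at 0 h (log2 −1.12 in WT). *SAC52*, an L10 gene of the large subunit, was at 99.9 FPKM in OX5-4, 110 FPKM in *atbbd1* and 111 FPKM in WT after PEG, against 266 FPKM in WT at 0 h. In WT at 0 h 41 genes reached 100 FPKM, against 8 in WT after PEG. This level lies between their medians of 142 FPKM in WT at 0 h and 62.9 FPKM in WT after PEG.

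Summed over the listed genes of a protein, all 27 families were lower in WT after PEG, 18 of them at least 2-fold. The lowest were L5, whose protein binds 5S rRNA, with 140 FPKM in WT after PEG, against 421 FPKM in WT at 0 h (log2 −1.59), and L28 (log2 −1.55). The least lower was S15a, here the single gene *RPS15A* (AT1G07770), with 79.6 FPKM in WT after PEG, against 107 FPKM in WT at 0 h (log2 −0.42).

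Within families, paralogs differed. A gene was called deviating where its log2 ratio lay at least 0.5 from the median of the 53 and its counting interval left that median out. This held for 14 genes in WT after PEG against WT at 0 h, 10 above the median and 4 below it. *RPS28* (AT5G64140) and AT5G28060 lay just inside this limit, at 0.52 and 0.50 above the median. *RPSAb* (AT3G04770) had a deviation of −0.53, but on 27 reads in WT after PEG and 90 in WT at 0 h, and its interval included the median. All 10 genes above the median were still below WT at 0 h.

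**Figure D3:**
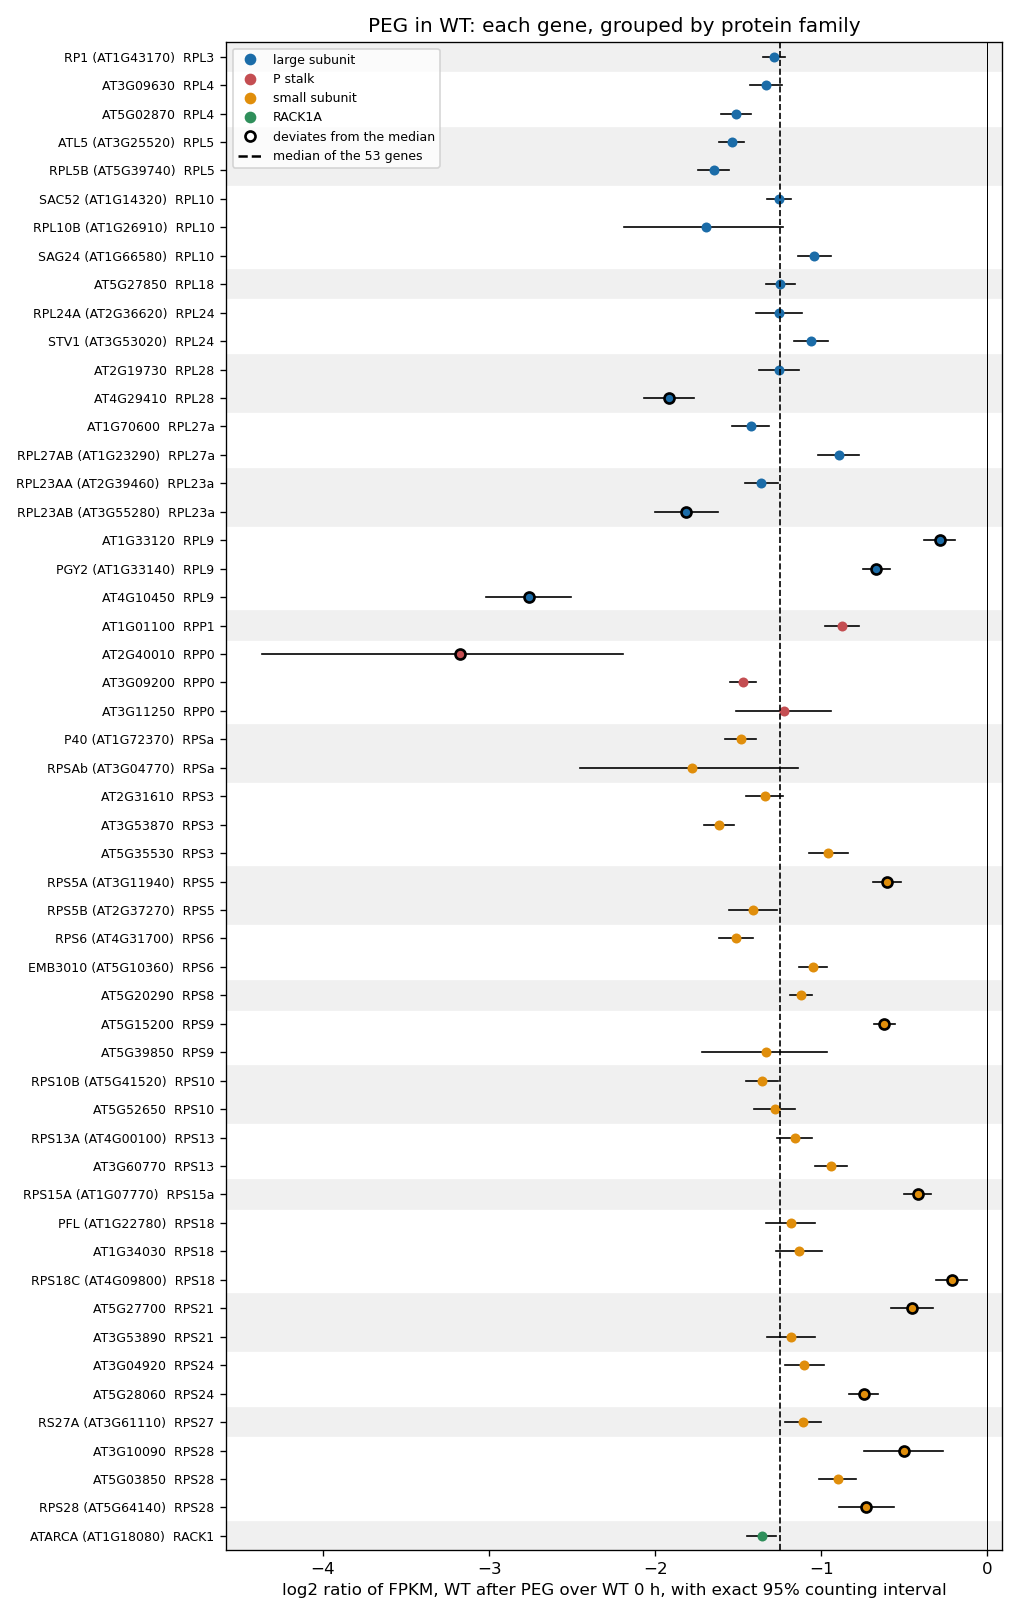
Log2 ratio of FPKM between WT after PEG and WT at 0 h for each of the 53 genes, grouped by protein family in shaded bands, with exact 95% counting intervals as bars and the median of the 53 genes (−1.25) as a dashed line. All points lie below 0, from −3.18 for AT2G40010 to −0.22 for RPS18C, and the 14 outlined points are the genes called deviating.

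The L9 family, a large subunit protein near the site where elongation factors bind, held genes at both ends. AT4G10450 was at 4.82 FPKM in OX5-4, 5.63 FPKM in *atbbd1* and 6.00 FPKM in WT after PEG, against 40.6 FPKM in WT at 0 h. Its ratio in WT was 0.148 (0.123 to 0.176), log2 −2.76. AT1G33120 was at 96.6 FPKM in OX5-4, 104 FPKM in *atbbd1* and 105 FPKM in WT after PEG, against 128 FPKM in WT at 0 h, a ratio of 0.819 (0.767 to 0.874). *PGY2* (AT1G33140), known from mutants with altered leaf shape, was at 136 FPKM in WT after PEG, against 215 FPKM in WT at 0 h, a ratio of 0.629 (0.596 to 0.665). The share of AT4G10450 in the FPKM of the 3 genes was 2.44% in WT after PEG, against 10.6% in WT at 0 h. The coding sequences of AT1G33120 and *PGY2*, neighbours on chromosome 1, are 99.1% identical, and 53.4% and 54.2% of their 50-base stretches occur in the other gene, so the authors' counting could split reads between them. AT4G10450 is 80.0% identical to AT1G33120 and shares no such stretch.

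In the P0 family, AT3G09200 carried most of the mRNA, with 71.6 FPKM in OX5-4, 81.8 FPKM in *atbbd1* and 79.4 FPKM in WT after PEG, against 220 FPKM in WT at 0 h. AT3G11250 was at 5.65 FPKM in OX5-4, 9.52 FPKM in *atbbd1* and 7.02 FPKM in WT after PEG, against 16.4 FPKM in WT at 0 h. AT2G40010 was near the limit of detection after PEG, at 0.46 FPKM in OX5-4, 0.92 FPKM in *atbbd1* and 0.39 FPKM in WT, against 3.53 FPKM in WT at 0 h. These are 12, 23 and 9 estimated reads, against 80 in WT at 0 h. Its log2 ratio of −3.18 in WT was the lowest of the 53, with an interval of 0.0484 to 0.219 around a ratio of 0.11.

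*RPS18C* encodes a protein of the head of the small subunit and was the least lower of the 53 genes. It was at 136 FPKM in OX5-4, 142 FPKM in *atbbd1* and 145 FPKM in WT after PEG, against 169 FPKM in WT at 0 h, a ratio of 0.861 (0.808 to 0.917) in WT. Its paralogs *PFL* (AT1G22780), named for the pointed first leaves of its mutant, and AT1G34030 had log2 ratios of −1.18 and −1.13, close to the median of the 53 genes. *RPS18C* therefore made up 59.8% of the family in WT after PEG, against 43.6% in WT at 0 h, and its share was also higher in OX5-4 (61.7%) and in *atbbd1* (60.2%). The coding sequences of *RPS18C* and AT1G34030 are 91.1% identical, and *RPS18C* shares no 50-base stretch with another gene.

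*RPS5A*, known for high expression in dividing cells, was at 85.5 FPKM in OX5-4, 94.6 FPKM in *atbbd1* and 102 FPKM in WT after PEG, against 155 FPKM in WT at 0 h, a log2 ratio of −0.61 in WT. *RPS5B* was at 27.8 FPKM in WT after PEG, against 73.9 FPKM in WT at 0 h, a log2 ratio of −1.41. In the S21 family AT5G27700 was at 84.8 FPKM in WT after PEG, against 116 FPKM in WT at 0 h, and AT3G53890 at 52.2 FPKM in WT after PEG, against 119 FPKM in WT at 0 h. At 0 h these S21 paralogs were thus nearly level, and after PEG AT5G27700 made up 61.9% of the pair, against 49.5% in WT at 0 h.

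In the S9 family, whose protein sits near the entry of the mRNA channel, AT5G15200 was at 155 FPKM in WT after PEG, against 238 FPKM in WT at 0 h (log2 −0.62). AT5G39850 was at 5.19 FPKM in WT after PEG, against 13.1 FPKM in WT at 0 h (log2 −1.33). The S24 gene AT5G28060 had a log2 ratio of −0.75 and its paralog AT3G04920 of −1.10. The 3 S28 genes were all above the median, AT3G10090 at −0.50, *RPS28* at −0.73 and AT5G03850 at −0.90, of which the first and the second met the limit for a deviating gene. Among large subunit paralogs, the L28 gene AT4G29410 was at 38.2 FPKM in WT after PEG, against 144 FPKM in WT at 0 h (log2 −1.92), and AT2G19730 at 59.4 FPKM in WT after PEG, against 142 FPKM in WT at 0 h (log2 −1.25). The L23a gene *RPL23AB* (AT3G55280), for a protein at the exit of the peptide tunnel, was at −1.81 and *RPL23AA* (AT2G39460) at −1.36.

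In 10 of the 20 families with several listed genes, at least 1 gene changed its share of the family by 5 points or more between WT after PEG and WT at 0 h, 21 genes in all. For all 21, the share in OX5-4 and in *atbbd1* lay on the same side of WT at 0 h as in WT after PEG, a comparison in which the 3 libraries share WT at 0 h. Over 32 pairs of paralogs the coding sequences were 75.8% to 99.1% identical (median 86.5%). Apart from AT1G33120 and *PGY2*, no gene shared over 7.995% of its 50-base stretches with another gene.

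**Figure D4:**
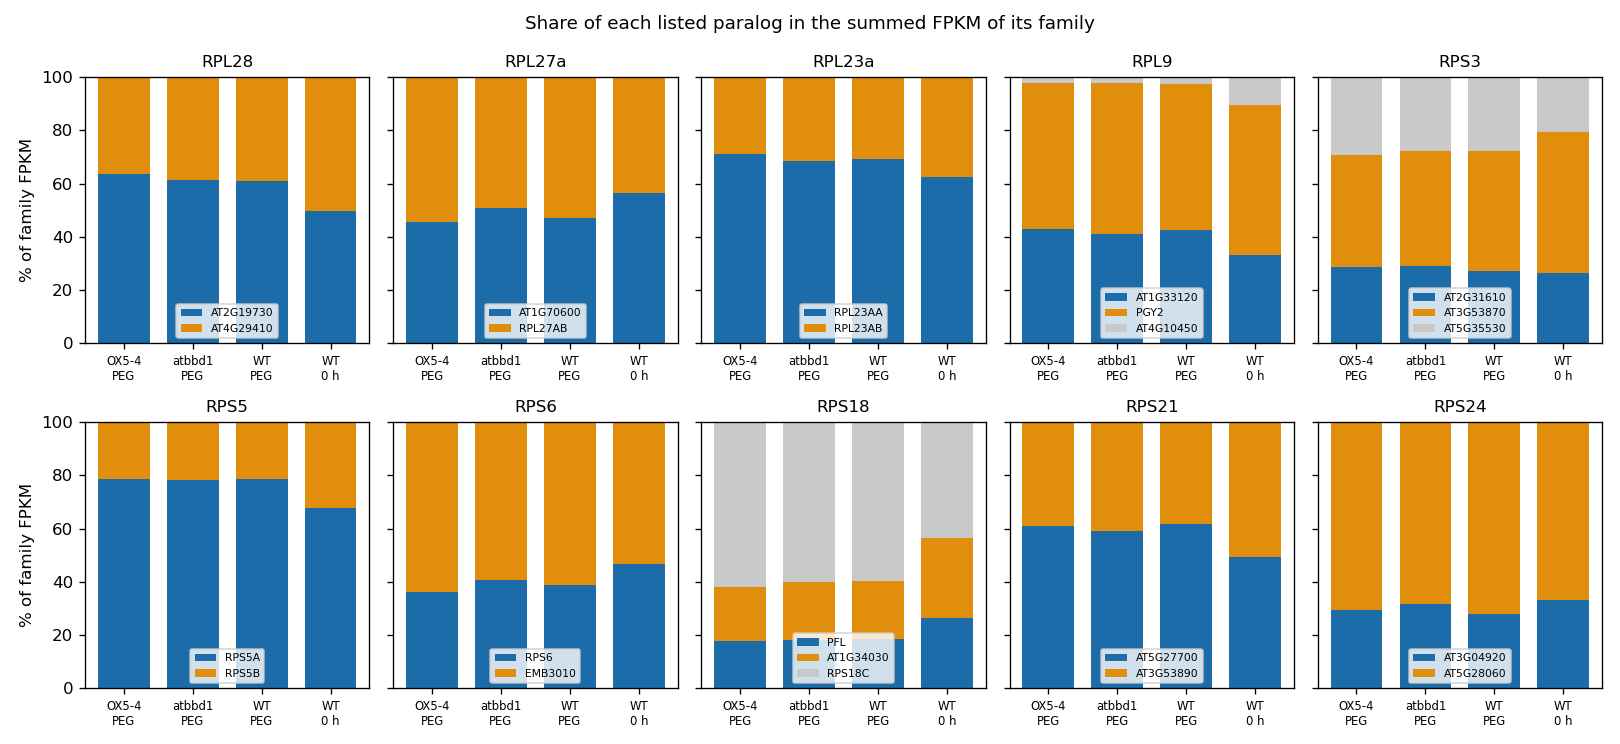
Share of each listed gene in the summed FPKM of its family, in percent, for the 10 families in which a share moved by 5 points or more, with 1 bar per library in the order OX5-4, atbbd1 and WT after PEG, then WT at 0 h. For the 21 genes whose share moved by that much, the 3 libraries after PEG differ from WT at 0 h in the same direction, as for RPS18C (61.7%, 60.2% and 59.8%, against 43.6%).

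Features outside the list of gene IDs were set beside the ratios. For WT after PEG over WT at 0 h, the median log2 ratio of the 37 genes with site II was −1.25, and that of the 16 without it −1.22. The 17 genes with a telo-box had a median of −1.04, and the 36 without it of −1.31. Among the 153 other cytosolic ribosomal protein genes kept, the medians ran the other way, −1.19 for 36 genes with a telo-box and −1.14 for 117 without it. Across the 53 genes, which share libraries and depth, the log2 ratio was lower at greater log2 exon length (Pearson r = −0.39, Spearman rho = −0.42). The 27 shorter genes (538 to 1109 bases of exon) had a median log2 ratio of −1.13 and the 26 longer ones (1117 to 1742 bases) of −1.34. The part of length in the ratios was not tested.

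In OX5-4 after PEG the ribosomal protein genes were lower than in WT after PEG by a small and even amount. Their summed FPKM was 2997 in OX5-4, against 3470 in WT, 1.16-fold lower. The median log2 ratio was −0.23 (quartiles −0.28 to −0.15), against 0.02 over all genes kept, and 51 of 53 genes were below WT, where 47.0% of all genes kept were. For 41 of these 51 the counting interval lay below 1, for none of the 53 above 1, and for 12 it included 1, where 14.0% of all genes lay below 1 and 18.1% above. Among the 48 that reached 20 FPKM in at least 1 library it lay below 1 for 41, against 23.4% of the 5235 genes at that level. No gene was past 2-fold or 1.5-fold in either direction, at a background of 1.31% lower and 2.45% higher for 2-fold, and 4.30% lower and 5.92% higher for 1.5-fold. OX5-4 was the lowest of the 4 libraries for 45 of the 53 genes, *atbbd1* for 7 and WT after PEG for 1. How often each library was lowest over all genes kept was not counted.

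The lowest ratio was that of AT4G29410 (L28), at 26.8 FPKM in OX5-4, against 38.2 FPKM in WT, a ratio of 0.703 (0.611 to 0.807). *STV1* (AT3G53020), an L24 gene that acts in re-initiation of translation after upstream reading frames, was at 60.4 FPKM in OX5-4, against 84.0 FPKM in WT (0.718, 0.658 to 0.784). *RPL24A* (AT2G36620), its paralog, was at 30.1 FPKM in OX5-4, against 40.1 FPKM in WT (0.750, 0.666 to 0.845). *RPS6* (AT4G31700), whose protein is phosphorylated downstream of TOR, was at 44.3 FPKM in OX5-4, against 58.6 FPKM in WT (0.755, 0.691 to 0.825). *RPSAb* (AT3G04770) had a like ratio of 0.759, but on 23 reads in OX5-4 and 27 in WT, and its interval (0.415 to 1.37) included 1.

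The genes nearest to or above WT were *SAG24* (AT1G66580), an L10 gene named for its mRNA in senescing leaves, *RACK1A*, *RS27A* (AT3G61110), AT3G10090 and AT2G40010. *RACK1A* was at 59.0 FPKM in OX5-4, against 62.9 FPKM in WT (0.938, 0.872 to 1.01). AT3G10090 was at 32.8 FPKM in OX5-4, against 30.6 FPKM in WT, and AT2G40010 at 0.46 FPKM in OX5-4, against 0.39 FPKM in WT, both with intervals that included 1. No gene met the limit for a deviating gene in this comparison, whose SD over the 53 genes was 0.13 on the log2 scale. All 27 family sums were below WT.

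In *atbbd1* after PEG the ribosomal protein genes were close to WT after PEG. Their summed FPKM was 3381 in *atbbd1*, against 3470 in WT. The median log2 ratio was −0.03, against −0.11 over all genes kept, so the ribosomal protein genes lay 0.08 above the shift of all genes. Of the 53 genes 21 were above WT and 31 below, where 35.2% and 64.3% of all genes kept were. With the libraries rescaled by median of ratios, a step that takes out most of that shift, the direction turned, with 44 above, 9 below and a median of 0.08, whereas rescaling to a common FPKM sum gave 14 above and 39 below. No direction can be given for the set as a whole. The interval included 1 for 38 genes, lay above 1 for 6 and below 1 for 9, where 13.0% of all genes lay above 1 and 30.4% below. Of the 48 that reached 20 FPKM it lay above 1 for 4 and below 1 for 9, against 25.6% and 39.2% of genes at that level.

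AT2G40010 (P0) was the only gene at least 2-fold higher, against 1.07% of all genes kept, and none was 2-fold lower, against 5.29%. At 1.5-fold, 1 gene was higher and none lower, against 3.48% and 11.9% of all genes kept. It was at 0.92 FPKM in *atbbd1*, against 0.39 FPKM in WT, a ratio of 2.36 (1.06 to 5.81) on 23 and 9 reads. Its paralog AT3G11250 was at 9.52 FPKM in *atbbd1*, against 7.02 FPKM in WT (1.36, 1.10 to 1.68), the next highest. *RPL10B* (AT1G26910), AT2G31610 (S3) and AT5G52650 (S10) followed, at ratios of 1.18, 1.11 and 1.11. The lowest ratio was that of AT5G39850 (S9), at 3.84 FPKM in *atbbd1*, against 5.19 FPKM in WT (0.740, 0.531 to 1.03). The 3 S28 genes were also among the lowest. AT3G10090 was at 24.2 FPKM in *atbbd1*, against 30.6 FPKM in WT (0.790, 0.657 to 0.949). *RPS28* was at 26.2 FPKM in *atbbd1*, against 32.1 FPKM in WT (0.814, 0.713 to 0.929), and AT5G03850 at 62.2 FPKM in *atbbd1*, against 69.2 FPKM in WT (0.898, 0.822 to 0.982). AT5G28060 (S24) was at 106 FPKM in *atbbd1*, against 127 FPKM in WT (0.840, 0.784 to 0.900), and *SAG24* at 59.6 FPKM in *atbbd1*, against 69.9 FPKM in WT. *RACK1A* was at 68.8 FPKM in *atbbd1*, against 62.9 FPKM in WT (1.09, 1.02 to 1.17).

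Set against each other, OX5-4 was below *atbbd1* for 46 of 53 genes and above it for 7, where 38.6% and 61.0% of all genes kept were. The median log2 ratio was −0.19, against 0.11 over all genes kept, a difference of −0.31. A scaling factor per library cancels in this difference, so rescaling is no check of it. The interval lay below 1 for 35 genes and above 1 for 2, where 17.1% of all genes lay below 1 and 33.8% above. Of the 48 that reached 20 FPKM it lay below 1 for 34, against 31.7% of genes at that level. *P40* (AT1G72370), which encodes protein Sa of the small subunit, was at 50.2 FPKM in OX5-4, against 69.3 FPKM in *atbbd1* (0.724, 0.670 to 0.783). *RPS6* was at 44.3 FPKM in OX5-4, against 61.0 FPKM in *atbbd1* (0.726, 0.666 to 0.791). AT3G11250 (P0) was at 5.65 FPKM in OX5-4, against 9.52 FPKM in *atbbd1*, a ratio of 0.593 (0.475 to 0.739).

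AT3G10090 (S28) lay on the other side, at 32.8 FPKM in OX5-4, against 24.2 FPKM in *atbbd1* (1.36, 1.14 to 1.62). These last P0 and S28 genes deviated from the median of the 53, as did AT5G39850 (S9), at 4.83 FPKM in OX5-4, against 3.84 FPKM in *atbbd1*, whose interval (0.907 to 1.75) included 1. AT2G40010 was 2-fold lower in OX5-4, against 1.28% of all genes kept, but on 12 and 23 reads and with an interval of 0.227 to 1.05. *RPL10B* was at 2.48 FPKM in OX5-4, against 3.60 FPKM in *atbbd1* (0.689, 0.462 to 1.02). *SAG24* was at 65.5 FPKM in OX5-4, against 59.6 FPKM in *atbbd1* (1.10, 1.01 to 1.19), and *RPS28* and AT5G03850 had ratios of 1.03 and 1.02 with intervals that included 1. None was 2-fold higher, against 7.33%. At 1.5-fold, 2 genes were lower and none higher, against 4.82% and 15.0% of all genes kept.

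Other genes of the translation apparatus give the context. Of 166 other cytosolic ribosomal protein genes, 153 were kept and all 153 were lower in WT after PEG than in WT at 0 h. At least 2-fold lower were 99 (64.7%). Of all genes kept, 47.7% were lower and 15.9% at least 2-fold lower. The median log2 ratio of the 153 genes was −1.16. Their medians were −0.20 in OX5-4 and 0.01 in *atbbd1*, both against WT after PEG. The 31 plastid ribosomal protein genes, whose products make proteins in the chloroplast, stood at a median of 0.14 for WT after PEG over WT at 0 h. Of the 31, 21 (67.7%) were above and 10 below, where 52.1% and 47.7% of all genes kept were. None was past 2-fold, against 16.1% higher and 15.9% lower. In *atbbd1* all 31 were above WT after PEG, where 35.2% of all genes kept were, by a median log2 of 0.32. In OX5-4 the median of the 31 was −0.05.

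For the 26 cytosolic translation factors the median was −0.75 on the log2 scale for WT after PEG over WT at 0 h. Of the 26, 10 (38.5%) were at least 2-fold lower, against 15.9% of all genes kept. The lowest was AT5G12110, an elongation factor 1-beta gene, at 6.88 FPKM in WT after PEG, against 26.3 FPKM in WT at 0 h. Of 31 genes for ribosome biogenesis and TOR signalling, 30 were kept, and they had the lowest median of these lists, −2.21. At least 2-fold lower were 24 (80.0%), against 15.9% of all genes kept. The 26 biogenesis genes among the 30 made up 23 of these 24 and had a median of −2.35, so the low median does not describe the TOR genes. *FIB2* (AT4G25630), a fibrillarin that methylates ribosomal RNA, was at 1.00 FPKM in WT after PEG, against 19.9 FPKM in WT at 0 h. *S6K2* (AT3G08720), a kinase that phosphorylates RPS6, was at the low level of 0.44 FPKM in *atbbd1*, against 1.68 FPKM in WT after PEG. It had the lowest ratio of the 30 genes in that comparison. The median log2 ratio of the 30 was −0.14, against −0.11 over all genes kept. Only 1 of the 30 was at least 2-fold lower and 1 at least 2-fold higher, against 5.29% and 1.07% of all genes kept.

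**Figure D5:**
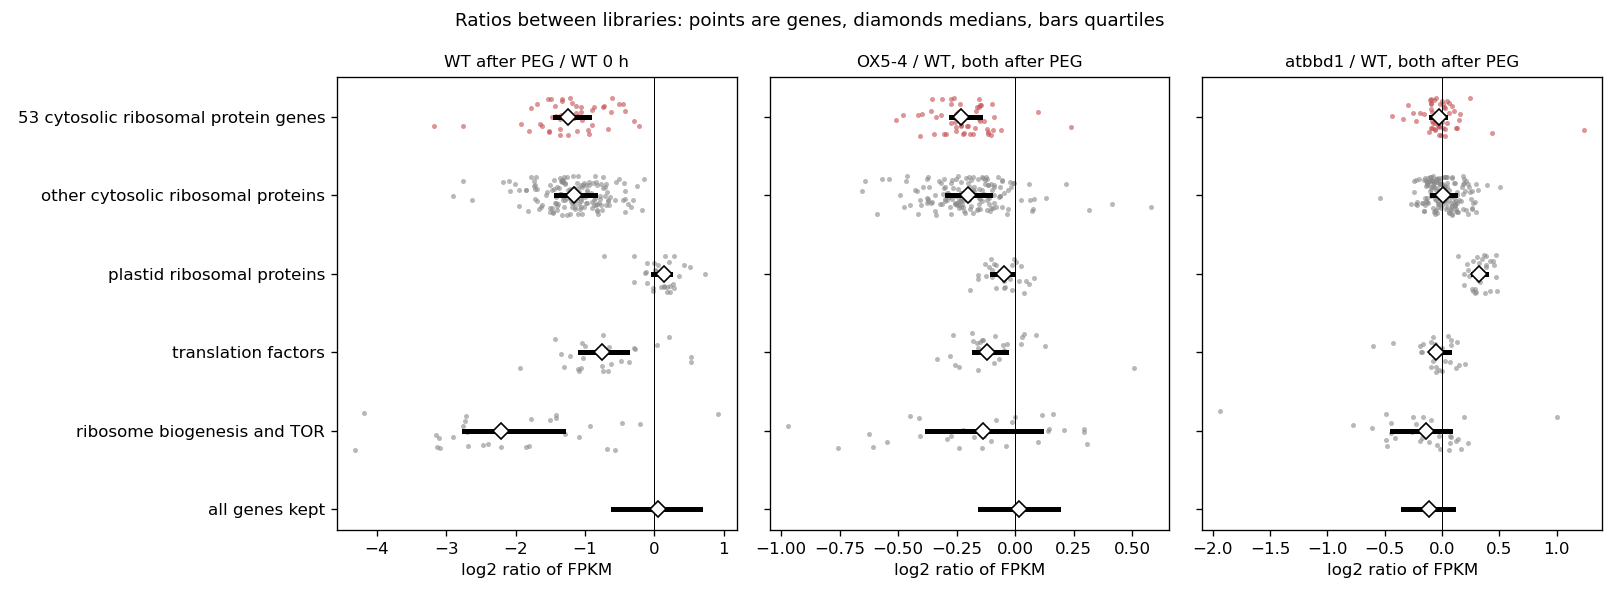
Log2 ratios of FPKM for WT after PEG over WT at 0 h, OX5-4 over WT and atbbd1 over WT, with 1 point per gene, diamonds at the median and bars from the first to the last quartile, for the 53 genes, other lists and all genes kept (no points drawn). Cytosolic ribosomal protein genes lie left of 0 in the first panel (median −1.25) and slightly left of it in the next (−0.23), and plastid ones right of 0 in the last (0.32).

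Markers of other cell types moved as well. The 9 markers of dividing and meristem cells, in which ribosomal protein mRNAs are abundant, were near 0, with a sum of 5.44 FPKM in WT after PEG, against 2.93 FPKM in WT at 0 h, where none reached 1 FPKM, and 3 of the 9 were listed at 0 in each of these libraries. Their sum was 4.28 FPKM in OX5-4 and 5.45 FPKM in *atbbd1*. The 5 guard cell markers summed to 8.77 FPKM in WT after PEG, against 17.8 FPKM in WT at 0 h. The 3 trichome markers summed to 1.00 FPKM in WT after PEG, against 24.4 FPKM in WT at 0 h, of which *TRY* (AT5G53200) alone made 24.1 FPKM. The 5 vascular markers summed to 24.5 FPKM in WT after PEG, against 56.5 FPKM in WT at 0 h, and the 3 of them kept had log2 ratios from −1.50 to 0.61. The 5 mesophyll markers summed to 24866 FPKM in WT after PEG, against 31097 FPKM in WT at 0 h, but differed among themselves, from a log2 ratio of −1.83 for *RCA* to 3.44 for *LHB1B1*, with 2 at least 2-fold lower and 1 at least 2-fold higher. Among the PEG libraries, OX5-4 had 7.91 FPKM of guard cell and 32.3 FPKM of vascular markers, and *atbbd1* had 10.2 FPKM and 44.9 FPKM. The part of these cell types in the ribosomal protein ratios was not tested, and in bulk leaves fewer cells of a type and less RNA per cell cannot be told apart.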

How the data were processed

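Leaf mRNA of the 4 conditions was sequenced, 1 library each. The deposited FPKM values were computed by the authors after mapping to TAIR10. TopHat2 and Cufflinks stand in the submitters' notes, whereas the paper names HISAT2 and RPKM, and whether counting used strand is not given. The label p35S:AtBBD1 was taken as the line OX5-4 of the paper.

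No measured value enters the rule for the 53 genes, but the genes and lists were chosen with earlier results of these data known. Genes were kept from 1 FPKM in any library, and ratios were taken without a pseudocount. A gene listed at 0 in one library counted as past a fold only when the other library held 1 FPKM or more. Reads were estimated by finding, per library, the total at which most FPKM values, times exon length, came within 0.15 of a whole number. Only genes with a single transcript and values of up to 40 reads entered this search. Of these values 99.1% to 99.3% met that limit, against 24.5% to 26.0% at other totals. Genes with several transcripts, many of the 53 among them, were not part of this fit. Their reads rest on the combined length of their exons. The search was tested on simulated data. Ratio intervals are exact 95% binomial (Clopper-Pearson) intervals on these reads.

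Named were the 5 highest and 5 lowest ratios per comparison, the 5 most abundant genes, the 10 genes farthest from the median where more deviated, families of deviating genes, *RACK1A*, *AtBBD1* and extremes of other lists. Other genes named were chosen after their values were seen. The alternatives were other filters, pseudocounts, scalings, bases and fold thresholds, 1 value per family, and 2 subsets of genes added after seeing the data. Exon lengths, names and promoters came from the TAIR10.1 RefSeq annotation. Python with pandas, scipy and Biopython was used.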

Additional observations from a re-analysis of the deposited data

How the results depend on the processing

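Of 132 alternative values, 105 stayed within counting error or within 1.5 times the count, 26 moved and 1 reversed. Some of the 105 were fixed in advance and are no check. All 53 genes passed the filter of 1 FPKM, so leaving it out could change nothing, and a 4-fold threshold cannot raise a count of 0. The value that reversed was the median of *atbbd1* over WT after PEG, 0.0778 with median-of-ratios scaling, against −0.0272 as deposited. For the medians that moved, scaling to the FPKM of genes that are no cytosolic ribosomal protein gene gave −1.34 for WT after PEG over WT at 0 h, and WT at 0 h as the base gave −1.45 for OX5-4 and −1.22 for *atbbd1*. A 4-fold threshold left 2 of 38 genes lower in WT after PEG. The single gene 2-fold higher in *atbbd1*, AT2G40010, was lost (count 0) with a filter of 5 FPKM, a pseudocount of 1 FPKM or a 4-fold threshold. For OX5-4 against *atbbd1* the 1 gene lower became 0 with a filter of 5 FPKM, pseudocounts of 1 or 0.1, either common-sum scaling and a 4-fold threshold, and 2 at 1.5-fold. Summed FPKM became 2897 in OX5-4, 3551 in *atbbd1*, 3389 in WT after PEG and 7498 in WT at 0 h with median-of-ratios scaling, and 3273 in *atbbd1*, 3433 in WT after PEG and 7820 in WT at 0 h with the sum of other genes. With a limit of 1.0 in place of 0.5, 3 genes deviated in WT after PEG and 0 in OX5-4 against *atbbd1*. With a pseudocount of 1 FPKM, 0 deviated in *atbbd1* and 1 in OX5-4 against *atbbd1*. The telo-box on the sense strand alone was found at 5 genes. No cause of these moves was tested beyond how each alternative is built. Leaving out genes with an identical protein was not run, since no protein table was used here. No paired analysis was possible because each condition had 1 library, and for the same reason no replicate could be left out. AT2G40010 and *RPSAb*, at 9 to 29 reads per library after PEG, are the values that depth limits most.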
